A study of Rattus norvegicus with 4 samples.

Results

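Heat shock proteins and chaperones, represented by 10 listed genes, were examined in cardiomyocyte cultures given eicosapentaenoic acid (EPA) or docosahexaenoic acid (DHA). The genes are Hspa1a, Hspa2, Hspa4, Hspa8, Hspa9, Hspb1, Hspb8, Dnajb1, Hspd1 and Hspe1. Members were the probes that carry these gene symbols in the platform annotation and have a value on all 4 arrays. This gave 11 probes for 9 of the 10 genes, out of 20500 measured probes and 9653 named genes. Dnajb1 had 3 probes, the other measured genes 1 each, and no probe is listed for Hspb1, so Hspb1 was not analysed here.

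The cultures were primary ventricular cells of newborn Wistar rats, grown in HAM F10 with 10% horse serum and 10% fetal calf serum. The compared groups were EPA at 60 µM, DHA at 60 µM and unsupplemented control cells, all in that serum-containing medium, renewed every 48 h until the cells were confluent. Each fatty acid was run on 2 arrays, with supplemented cells in one channel and control cells in the other. On array 1 the supplemented cells were labelled with Cy5 and on array 2 with Cy3. EPA and DHA are long-chain omega-3 fatty acids of fish oil; DHA is the longer and more unsaturated of the pair. Ventricular primary cultures can hold fibroblasts, endothelial cells and macrophages beside the cardiomyocytes, and the deposited values are ratios, so the tissue label could not be checked against marker levels. In such bulk samples, fewer cells of a type and less RNA per cell cannot be told apart.

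Heat shock proteins are chaperones that bind unfolded proteins and help them fold, refold or be degraded. In the cytosol the Hsp70 proteins work with J-domain partners such as Dnajb1 and with exchange factors such as Hspa4, while in mitochondria Hspa9 and the Hspd1-Hspe1 chamber handle imported proteins. Heat shock factor 1 raises many of these genes when proteins misfold, through heat shock elements in their promoters, and in heart muscle Hspa1a and the small heat shock proteins are known as protectors against ischemic and mechanical stress.

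To show the element that links these genes, promoter windows of 10 members, Hspb1 included, were taken from RefSeq (build GRCr8, windows of one length). The windows of 5 members (Dnajb1, Hspa1a, Hspa8, Hspb1 and Hspe1) hold the gene's outermost start in the gene table. Those of Hspa2 and Hspd1 begin 20 and 45 bases inside the gene, and those of Hspa4, Hspa9 and Hspb8 lie 1159 to 4310 bases inside it, so they need not hold the promoter in use. A heat shock element is built of alternating inverted units with the cores GAA and TTC. A pair of adjoining units (GAANNTTC or TTCNNGAA, each its own reverse complement, so the search covers both strands) was present in 8 of the 10 windows, against 15.9% of all 33469 promoter windows of the table. A run of 3 units (GAANNTTCNNGAA or TTCNNGAANNTTC, reverse complements of each other, each containing 2 overlapping pairs) was present in 3 windows, those of Hspa8, Hspd1 and Hspe1, against 0.798% of all windows. The Hspa1a window, and the Hspa4 window inside that gene, held neither set of letters. The outermost start of a gene need not be the start in use. The missing letters therefore do not show that the Hspa1a promoter lacks the element. The stretch shared by Hspd1 and Hspe1 is printed because these genes lie head to head and were measured with opposite signs on every array. Hspa8 is printed because it holds the 3-unit run at 2 places and Dnajb1 because its 3 probes disagreed. In the shared stretch 2 such runs overlap, making 4 units in a row. All matches of the Hspd1 and Hspe1 windows lie in this stretch, so the same letters entered the counts above as 2 windows. Capitals mark the 3-unit runs in the shared stretch and in Hspa8, and the pairs of units in Dnajb1.
Hspd1-Hspe1 shared stretch, chr9:64084077-64084287, GRCr8, + strand: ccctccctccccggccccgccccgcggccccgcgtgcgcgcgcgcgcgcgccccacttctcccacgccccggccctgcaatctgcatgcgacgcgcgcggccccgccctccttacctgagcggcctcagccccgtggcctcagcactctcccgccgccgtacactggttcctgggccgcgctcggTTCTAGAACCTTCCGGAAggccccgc
Hspa8, chr8:50080264-50080563, GRCr8, + strand: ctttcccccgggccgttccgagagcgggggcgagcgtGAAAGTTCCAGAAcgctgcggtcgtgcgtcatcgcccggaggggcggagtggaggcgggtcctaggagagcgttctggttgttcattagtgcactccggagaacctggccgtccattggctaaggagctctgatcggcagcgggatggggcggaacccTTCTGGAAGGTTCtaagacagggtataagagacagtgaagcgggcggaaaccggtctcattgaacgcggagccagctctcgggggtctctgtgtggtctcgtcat
Dnajb1, chr19:41431092-41431391, GRCr8, - strand: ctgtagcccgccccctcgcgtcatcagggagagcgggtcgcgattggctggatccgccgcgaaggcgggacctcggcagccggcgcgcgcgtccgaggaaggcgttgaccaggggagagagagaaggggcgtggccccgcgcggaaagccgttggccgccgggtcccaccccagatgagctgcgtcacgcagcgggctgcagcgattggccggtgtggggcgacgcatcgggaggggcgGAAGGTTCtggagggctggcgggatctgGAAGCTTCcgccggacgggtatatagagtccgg
A match is a description of these letters, and no binding was measured.

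Values below are log2 ratios read as fatty acid over control, with each array's median set to 0, and a swap mean is given ± the half-difference between the 2 arrays of a dye swap. Log base and direction are not stated in the sources used here. The direction is a likely one: all sample titles name the supplemented cells, and Cpt1b, which admits long-chain fatty acids to mitochondria and is a known target of fatty acid signalling, was positive throughout, between 0.88 and 0.93 for EPA and at least 0.98 for DHA. This reading was chosen with the values known. Were the ratios control over fatty acid, all signs would turn. Were they Cy5 over Cy3, those of arrays 2 would. In base 10 every fold would be larger. Both arrays of a swap were counted together as 1 sample, since nothing says that they hold separate cultures, and so the comparisons with control have no replicate check.

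DHA array 1 stands apart through a long low tail: 1090 probes read under -1, and 1082 of these sit in the first 66 of 215 inferred grid columns. The limit of 66 columns was fixed by hand, so counts on each side of it describe the region and do not test it. In the first 66 columns lie 2 member probes, for Hspd1 and Hspa2. The interquartile range of all probes was between 0.19 and 0.26 on the 4 arrays. The EPA arrays correlated with each other at r = -0.11 across all probes and the DHA arrays at r = -0.029, while EPA array 2 correlated with DHA array 2 at r = 0.65 and EPA array 1 with DHA array 1 at r = 0.062, so the values of arrays of one dye orientation resembled each other more than those of one fatty acid. These are correlations across probes, which are not independent replicates.

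The first questions were which chaperone transcripts differed from control with EPA and with DHA. No heat shock protein gene reached 1.5-fold on both arrays of a swap, with EPA or with DHA. Over all genes 0.0311% did so with EPA and 0.0829% with DHA. At 1.3-fold there was again 0 of 9 genes with either fatty acid, against 0.259% and 0.383% of all genes. With backgrounds this low, a count of 0 among 9 genes is near what the whole table shows. EPA swap means of the 11 probes were 0.027 to 0.16 in size, and DHA swap means 0.054 to 0.76. For EPA, 4 of the 11 probes had a swap mean larger than its half-difference, and for DHA 5 did. Over all probes this share was 44.6% for EPA and 45.6% for DHA.

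**Figure D1:**
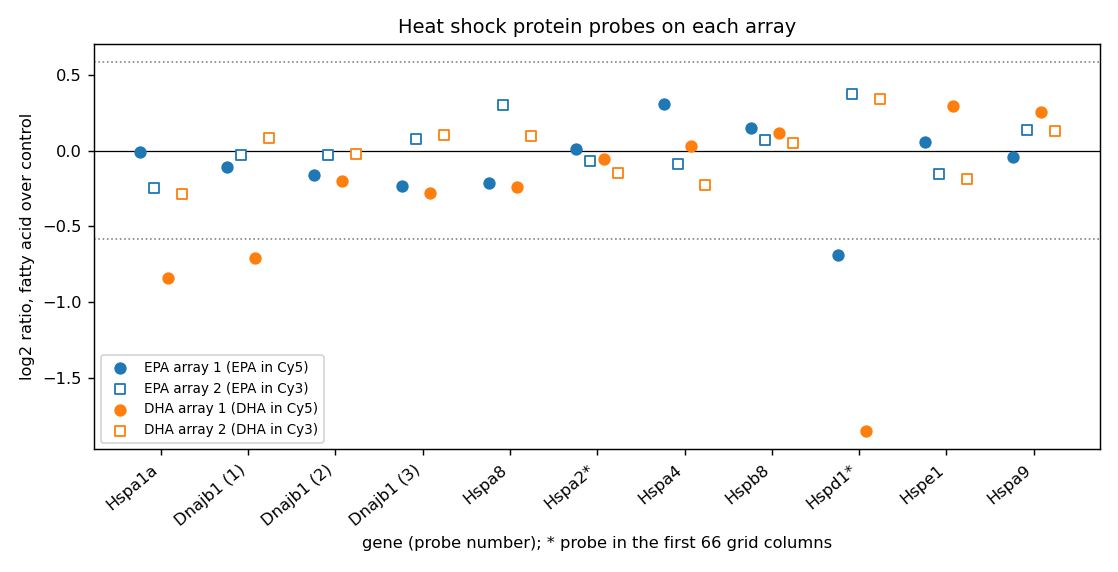
Log2 ratio of fatty acid over control (vertical axis, array medians at 0) for the 11 heat shock protein probes. Each point is 1 array, EPA in blue and DHA in orange, filled circles for array 1 and open squares for array 2, with dotted lines at 1.5-fold. Hspa1a lies below 0 on all 4 arrays and Hspb8 above 0 on all 4, while Hspd1 and Hspa8 change sides between array 1 and array 2.

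Hspa1a, the stress-inducible Hsp70, lay below control on all 4 arrays, by very different amounts. It read -0.0077 on array 1 and -0.25 on array 2 of EPA, and -0.84 on array 1 and -0.29 on array 2 of DHA. EPA array 1 was thus level with control, both arrays 2 were alike, and DHA array 1 was far lower than the other 3. The swap mean was -0.13 ± 0.12 with EPA (0.916-fold) and -0.56 ± 0.28 with DHA (0.677-fold). The probe lies outside the first 66 columns, and the median of its grid neighbours on DHA array 1 was 0.12. Only 0.0984% of probes outside those columns read lower on DHA array 1, and 1.505% did so on DHA array 2. Among the 6096 genes with no probe in the first columns, 7 had a lower DHA swap mean. As Cy5 over Cy3 the swap means would be 0.12 ± 0.13 with EPA and -0.28 ± 0.56 with DHA. In base 10 Hspa1a would pass 1.5-fold on both DHA arrays and be at 0.273-fold. Hspa1a has a near-identical paralog, Hspa1b, which has no probe under its own name here, so the signal may come from either gene.

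Dnajb1, the J-domain partner that stimulates the ATPase of Hsp70, was read by 3 probes that did not agree. Probe 1 gave -0.10 on array 1 and -0.025 on array 2 of EPA, and -0.71 on array 1 and 0.085 on array 2 of DHA. Probe 2 gave -0.16 and -0.026 with EPA, and -0.20 and -0.022 with DHA. Probe 3 gave -0.23 and 0.076 with EPA, and -0.28 and 0.10 with DHA. All 3 probes were below control on both arrays 1, and 1 of the 3 was below control on all 4 arrays. The low reading of probe 1 on DHA array 1, in the first row of the grid, was not shared by the other two. Averaged over the probes, Dnajb1 stood at -0.08 ± 0.09 with EPA and -0.17 ± 0.23 with DHA.

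Hspa8, the constitutive Hsp70 that folds new proteins and uncoats clathrin vesicles, changed side between the arrays of each swap. It read -0.21 on array 1 and 0.30 on array 2 of EPA, and -0.24 on array 1 and 0.10 on array 2 of DHA. Both arrays 1 were below control and both arrays 2 above, so the swap means were near 0, at 0.05 ± 0.26 with EPA and -0.07 ± 0.17 with DHA. Under the Cy5 over Cy3 reading Hspa8 would be lower with both fatty acids, at -0.26 ± 0.05 and -0.17 ± 0.07.

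Hspa4, an Hsp110-type exchange factor of Hsp70, showed the opposite pattern. It read 0.31 on array 1 and -0.09 on array 2 of EPA, and 0.031 on array 1 and -0.23 on array 2 of DHA. Arrays 1 were above control and arrays 2 below, with swap means of 0.11 ± 0.20 for EPA and -0.10 ± 0.13 for DHA. Hspa2, an Hsp70 best known for its role in spermatogenesis, read 0.014 and -0.07 with EPA, and -0.05 and -0.15 with DHA. Its probe lies in the first 66 columns, and its swap means were -0.03 ± 0.04 and -0.10 ± 0.05.

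Hspb8, a small heat shock protein that works with Bag3 in chaperone-assisted autophagy of muscle, was the single member above control on all 4 arrays. It read 0.15 on array 1 and 0.07 on array 2 of EPA, and 0.12 on array 1 and 0.05 on array 2 of DHA. The 4 values lay close together and were small, with swap means of 0.11 ± 0.04 for EPA (1.08-fold) and 0.09 ± 0.03 for DHA (1.06-fold). A reading on one side of 0 throughout is common: 7.0% of all genes lay above 0 on all 4 arrays and 7.59% below, against 1 of the 9 members each.

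Among the mitochondrial chaperones, Hspd1 (Hsp60, the barrel of the folding chamber) had the widest spread of all members. It read -0.69 on array 1 and 0.37 on array 2 of EPA, and -1.85 on array 1 and 0.34 on array 2 of DHA. Arrays 1 were far below control and arrays 2 above, with swap means of -0.16 ± 0.53 for EPA and -0.76 ± 1.10 for DHA. Under quantile normalization they were -0.26 and -0.19, and the EPA minus DHA difference turned to -0.08. The probe lies in the first 66 columns, and the value on DHA array 1 is in the region where that array reads low. The median of its grid neighbours was 0.17 on EPA array 1 and -0.19 on DHA array 1. With this local median removed, the swap means were -0.23 with EPA and -0.62 with DHA. Under the Cy5 over Cy3 reading Hspd1 would stand at -0.53 ± 0.16 with EPA and -1.10 ± 0.76 with DHA.

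Hspe1 (Hsp10, the lid of the same chamber), whose promoter window overlaps that of Hspd1 in the stretch printed above, read the other way. It gave 0.06 on array 1 and -0.16 on array 2 of EPA, and 0.29 on array 1 and -0.19 on array 2 of DHA. On each of the 4 arrays Hspd1 and Hspe1 lay on opposite sides of control. The swap means of Hspe1 were -0.05 ± 0.11 and 0.05 ± 0.24. Hspa9, the mitochondrial Hsp70 that draws proteins through the inner membrane, read -0.041 and 0.13 with EPA, and 0.26 and 0.13 with DHA. It was above control on 3 of 4 arrays and on both DHA arrays, with swap means of 0.05 ± 0.09 for EPA and 0.20 ± 0.06 for DHA (1.15-fold). Among the 6096 genes with no probe in the first columns, 282 had a higher DHA swap mean than Hspa9.

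**Figure D2:**
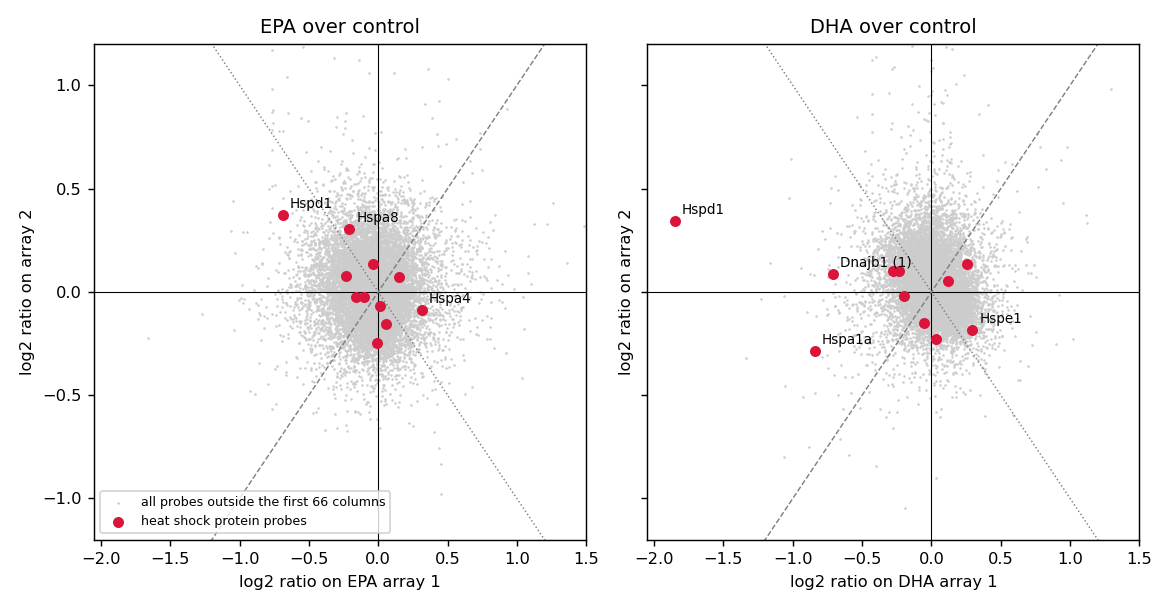
Log2 ratio on array 2 against log2 ratio on array 1, for EPA (left) and DHA (right). Red points are the 11 heat shock protein probes and grey points all probes outside the first 66 columns, of which 31 (EPA) and 36 (DHA) fall outside the axes. Read as fatty acid over control, a change with treatment lies along the dashed diagonal and a dye difference along the dotted one. Read as Cy5 over Cy3, the diagonals trade meaning. Hspd1 and Hspa8 lie in the upper left quadrant of both panels (below control on array 1, above on array 2), and Hspa1a, with DHA, in the lower left one.

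By side of 0 over the 4 arrays, averaging the Dnajb1 probes, 3 of the 9 genes (Dnajb1, Hspa8 and Hspd1) were below control on both arrays 1 and above on both arrays 2, against 15.8% of all genes. Of the Dnajb1 probes, only probe 3 showed this pattern by itself. The reverse held for 2 genes, Hspa4 and Hspe1, against 12.2% of all genes. Thus 5 of 9 members changed side between arrays 1 and arrays 2 in both swaps.

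A shift shared by the EPA and DHA cultures was sought with limma on the swap means of EPA and DHA, with Benjamini-Hochberg adjustment over 20500 probes. None of the 11 member probes passed an adjusted p of 0.05, and neither did any other probe (0.0%); the smallest adjusted p was 0.891. At an unadjusted p under 0.05 there was 0 of 11 member probes, against 909 (4.43%) of all probes. Hspd1 (joint mean -0.46 ± 0.18, SE) and Hspa1a (-0.35 ± 0.13, SE) had the smallest p among members, both with a limma adjusted p of 0.891. Without the first 66 columns, over 14222 probes, Hspa1a stood at -0.35 ± 0.12 (SE) with a limma adjusted p of 0.359. This test takes its spread from how far EPA and DHA differ, and leaves out the spread of the control and that between the arrays of a swap.

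EPA and DHA were compared at the same concentration, within one dye orientation, where a dye difference common to both arrays cancels. No member differed by 1.5-fold in both orientations, against 0.0622% of all genes, nor by 1.3-fold, against 0.404%. For Hspa1a the EPA minus DHA difference was 0.83 on arrays 1 and 0.04 on arrays 2, on average 0.44 ± 0.40. For Hspd1 it was 1.17 on arrays 1 and 0.03 on arrays 2. Both differences thus came from arrays 1, and were nearly absent on arrays 2. Dnajb1 probe 1 likewise differed by 0.61 on arrays 1 and by -0.11 on arrays 2.

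For the other members the mean differences were smaller in size than those of Hspa1a and Hspd1. Hspb8 differed by 0.03 ± 0.0084. Hspa2 differed by 0.07 ± 0.0071, but by -0.23 once the local median of the grid was removed, which also turned its DHA swap mean to 0.13. Hspa8 differed by 0.12 ± 0.09 (0.03 on arrays 1 and 0.20 on arrays 2), and Hspa4 by 0.21 ± 0.07 (0.28 and 0.14). Hspe1 differed by -0.10 ± 0.13 and Hspa9 by -0.15 ± 0.15. With 1 sample for each fatty acid there is no test of these differences between cultures. Limma over the 4 arrays, in which the swap arrays count as separate values, gave an adjusted p of 1.0 for each member probe without a block for dye orientation, and of 0.77 to 0.98 with it. Its 95% intervals cover array error only. Without the block they ran from -0.19 to 1.07 for Hspa1a, from -0.32 to 0.75 for Hspa4 and from -0.31 to 0.36 for Hspb8. With the block they ran from -0.31 to 1.18, from -0.11 to 0.54 and from -0.28 to 0.33 for the same genes. These widths do not show that EPA and DHA act alike on the chaperone genes.

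**Figure D3:**
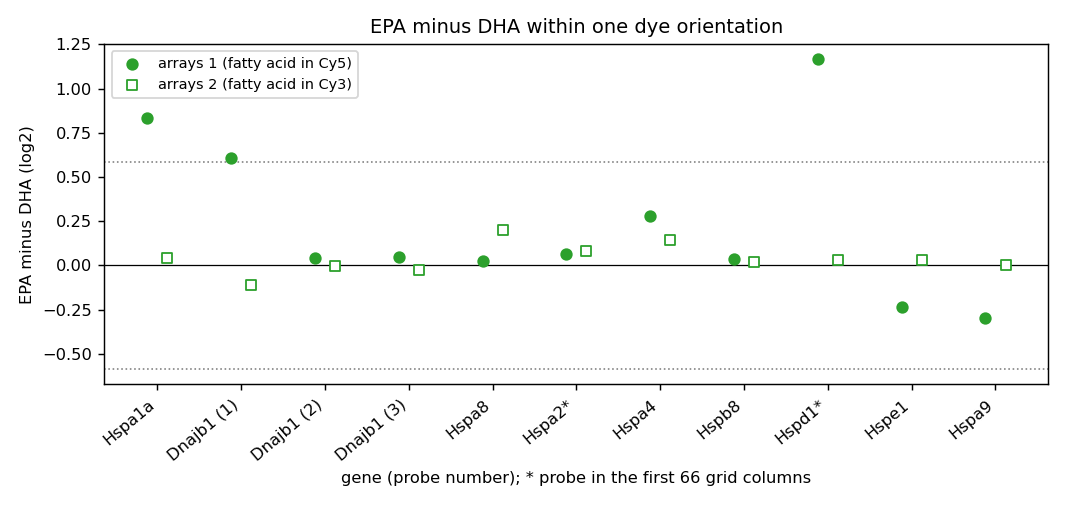
EPA minus DHA difference of log2 ratios (vertical axis) for each heat shock protein probe. Filled circles are the arrays numbered 1 and open squares the arrays numbered 2, with dotted lines at 1.5-fold. The differences of Hspa1a, Dnajb1 probe 1 and Hspd1 on arrays 1 (0.83, 0.61 and 1.17) have no counterpart on arrays 2 (0.04, -0.11 and 0.03).

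The rest of the chaperone network was read from 99 further genes in 7 classes, of which 72 were measured. None of the 72 passed 1.5-fold or 1.3-fold on both arrays with EPA or with DHA. Of the 72, 2 lay above control and 5 below on all 4 arrays, against 7.0% and 7.59% of all genes. Below on arrays 1 and above on arrays 2 were 18, against 15.8% of all genes, and 6 showed the reverse, against 12.2%. Their median swap mean was -0.0034 with EPA and -0.02 with DHA, against -0.0012 and 0.00021 for all genes. The measured members had medians of -0.03 and -0.10. Without genes of the first columns the members stood at 0.05 and -0.07, so their EPA median turned. The other chaperone genes then stood at -0.03 and 0.03, and all genes at -0.02 and 0.03. The member list has 9 genes, and 2 of them lie in the region where DHA array 1 reads low. These are Hspa2 and Hspd1, the latter with a DHA swap mean of -0.76. The medians are a description only.

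Above control on all 4 arrays were Bag6, a chaperone for membrane and misfolded proteins, at 0.32 ± 0.12 with EPA and 0.13 ± 0.05 with DHA, and Unc45b, the myosin chaperone of striated muscle, at 0.09 ± 0.02 and 0.18 ± 0.06. Below on all 4 arrays was Chordc1, an Hsp90 co-chaperone, at -0.10 ± 0.05 with EPA and -0.20 ± 0.10 with DHA. Eif2ak3, the PERK kinase of the unfolded protein response, stood at -0.17 ± 0.08 and -0.14 ± 0.13. The J-domain protein gene Dnaja2 was at -0.29 ± 0.11 and -0.92 ± 0.87, and the ribosome-associated Hsp70 gene Hspa14 at -0.08 ± 0.06 and -0.91 ± 0.73. The probes of Unc45b, Eif2ak3, Dnaja2 and Hspa14 lie in the first 66 columns.

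The heat shock factors, the family that acts through heat shock elements, had swap means between -0.13 and 0.12. Hsf1, the main stress factor, read 0.06 on array 1 and -0.32 on array 2 of EPA, and 0.17 on array 1 and -0.05 on array 2 of DHA. It changed side between array 1 and array 2 in both swaps, with swap means of -0.13 ± 0.19 and 0.06 ± 0.11. Hsf2 stood at -0.09 ± 0.02 with EPA and 0.04 ± 0.12 with DHA, and Hsf4, with 1 of 2 probes in the first columns, at 0.12 ± 0.04 and 0.04 ± 0.07.

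By class, the small heat shock protein genes other than Hspb8 (7 measured) had a median swap mean of 0.07 with EPA and -0.32 with DHA. For the 2 of them with no probe in the first columns the medians were -0.06 and 0.05. The cytosolic Hsp70 and Hsp110 machinery other than the members (18 genes) stood at -0.02 and -0.09, with 0.02 for DHA without genes of the first columns. The Hsp90 machinery (12 genes) stood at 0.05 and 0.06, with -0.02 for EPA without those genes, and TRiC and prefoldin (7 genes) at -0.09 and -0.20, or -0.03 and -0.04 without them. The mitochondrial chaperones other than the members (7 genes) had medians of -0.03 and 0.05, and the ER chaperones (18 genes) 0.0070 and -0.02, or 0.03 and 0.02 without genes of the first columns. Of the 72 genes, 9 had a DHA swap mean at or under 1.5-fold lower, or 12.5%, and each of the 9 has a probe in the first columns. Over all genes 463 were this low, or 4.8%, of which 456 have a probe in those columns. A probe in those columns is held by 27 of the 72 chaperone genes and by 3557 of all 9653 genes. Whether grid position accounts for the larger share among chaperone genes was not tested. The 9 chaperone genes read as low as -3.31 on DHA array 1, and between -0.18 and 0.54 on DHA array 2.

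**Figure D4:**
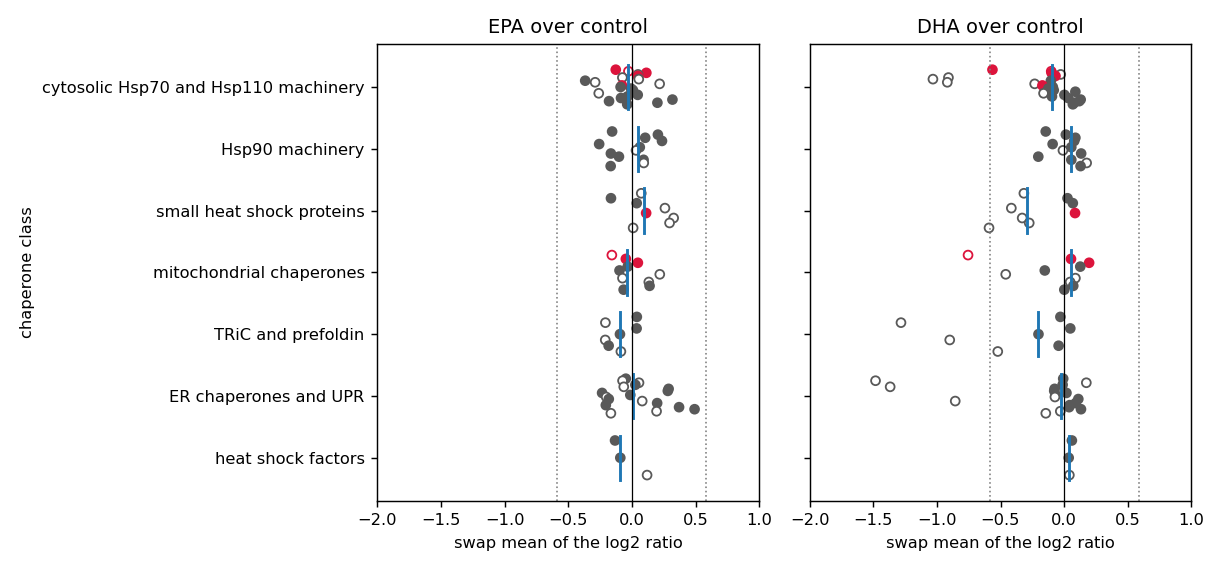
Swap mean of the log2 ratio (horizontal axis) for each measured chaperone gene by class, EPA left and DHA right. Red points are the heat shock protein genes followed here, grey points the others, open points have a probe in the first 66 grid columns, blue bars are class medians with the heat shock protein genes included, and dotted lines mark 1.5-fold. With DHA the points at or under the lower dotted line, 9 genes and Hspd1, are open.

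Markers of other cell types were set beside these values. Of 12 measured macrophage and leukocyte markers 5 lay below control on all 4 arrays, against 7.59% of all genes, and the list's median swap mean was -0.14 with EPA and -0.14 with DHA (-0.15 and -0.09 without genes of the first columns). At 1.3-fold on both arrays 1 marker was lower with EPA and 3 with DHA, against 0.259% and 0.383% of all genes in either direction. The lowest outside the first columns, named after their values were seen, were Lyz2, a lysozyme, at -0.74 ± 0.45 with EPA and -0.77 ± 0.36 with DHA, and Mmp12, macrophage elastase, at -0.66 ± 0.19 and -0.84 ± 0.21. Both lay below the swap means of Hspa1a, and Mmp12 passed 1.5-fold on both DHA arrays. C1qb (-0.14 and -0.21), Cd14 (-0.16 and -0.20) and Tyrobp (-0.14 and -1.08) were also below control on all 4 arrays. Tyrobp, whose probe lies in the first columns and read -1.76 on DHA array 1, is among the 3 past 1.3-fold with DHA. Laptm5 had swap means of -0.0073 and -0.24. The other markers of the list were not low with both fatty acids. C1qc (0.09 with EPA and 0.01 with DHA) and Cd68 (0.02 and 0.06) had swap means above control with both fatty acids. Itgam was above control with EPA only, and Cd74, Csf1r and Ptprc with DHA only. The fibroblast list (10 genes) had medians of 0.14 and 0.06, and the cardiomyocyte list (13 genes) 0.05 and -0.0072. Without genes of the first columns these were 0.12 and 0.12 for fibroblasts and -0.09 and 0.01 for cardiomyocytes, so both cardiomyocyte medians turned. The endothelial list (8 genes) stood at 0.05 and 0.05, the smooth muscle list (6 genes) at 0.09 and 0.0092 (-0.03 with DHA without those genes), and the red cell list (3 genes) at 0.00013 and 0.05. Their part in the ratios of the heat shock protein genes was not tested.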

How the data were processed

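Agilent rat oligonucleotide arrays were hybridised with cRNA of supplemented and control cardiomyocytes in 2 colours, per the labels. The authors deposited 1 value per feature and array, taken here as a log2 ratio although the base is not stated, for 22575 features, of which 20500 had a value on all 4 arrays. Not given in the sources used here are the scanner software, the dye and background handling, the log base and the direction. Deposited values of arrays 1 carry up to 10 significant digits and those of arrays 2 up to 6. Array medians as deposited lay between -0.0097 and 0.0024 and were set to 0.

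Probe names come from the platform annotation, which is old. Symbols were brought up to date through the gene IDs in a table of the GRCr8 assembly: 12750 probes had 1 symbol, 5 had several and stayed unnamed, and 7745 were unlisted. Probes of a gene were averaged for counts of genes. A gene counted when both arrays of a swap (for EPA minus DHA, both dye orientations) passed 1.5-fold in one direction. The joint comparison used limma 3.58.1 (lmFit and eBayes, in R 4.3.3) on the swap means. It was also run on simulated arrays, in which the dye difference cancels in the swap mean and no grid region reads low. That run therefore does not show how the comparison behaves on these arrays. Arrays of one number share the dye orientation, per the labels, and their deviations correlated at 0.31 between EPA and DHA, or 0.64 without the first 66 columns. Named were all member probes, the heat shock factors, and up to 4 further chaperone genes in each direction on one side of 0 on all arrays. The members and gene lists were chosen with earlier results of these data known. With 4 arrays, their number limits the precision. Alternatives were the Cy5 over Cy3 reading, equal spread, quantile normalization, a local median, leaving out the first 66 columns or each array, base 10, 1.3-fold, single probes and a replicate block.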

Additional observations from a re-analysis of the deposited data

How the results depend on the processing

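The count of heat shock protein genes past 1.5-fold on both arrays stayed 0 for EPA, DHA and EPA minus DHA under every alternative that kept both arrays and base 2. In base 10 it was 1 for DHA (Hspa1a) and 0 for the other two. With 1 array alone it was 0 to 1 for EPA (Hspd1 on array 1), 0 to 2 for DHA (Hspa1a and Hspd1 on array 1) and 0 to 2 for EPA minus DHA. Over all genes, the 3 with EPA became 27 as Cy5 over Cy3, 5 with equal spread, 23 with quantile normalization, 477 in base 10, 25 at 1.3-fold and 7 by single probes, and 83 to 307 with 1 array left out. The 8 with DHA became 5 as Cy5 over Cy3, 15 with quantile normalization, 479 in base 10, 37 at 1.3-fold and 13 by single probes, and 83 to 968 with 1 array left out. The 6 of EPA minus DHA became 3 as Cy5 over Cy3, 11 with equal spread, 37 with quantile normalization, 579 in base 10, 39 at 1.3-fold and 12 by single probes, and 46 to 1318 with 1 orientation left out. The joint limma count of 0 probes became 2 without the first 66 columns, neither of them a member, and was 0 with and without the replicate block over 4 arrays, where 572 and 992 probes had an unadjusted p under 0.05. EPA minus DHA by limma over 4 arrays also gave 0 probes with and without the replicate block (359 and 218 at an unadjusted p under 0.05). As Cy5 over Cy3 the swap mean changed side for 5 of 9 members with EPA, and for 2 with DHA and for EPA minus DHA. With the local median removed Hspa2 turned with DHA (0.13) and for EPA minus DHA (-0.23), and with quantile normalization Hspd1 turned for EPA minus DHA (-0.08). Equal spread turned none of these values. With 1 array left out, the side turned for 3 to 4 of 9 members with EPA and for 1 to 4 with DHA. For EPA minus DHA it turned for 0 to 3 members with 1 orientation left out. The causes were not tested. Spot intensities were not used here, so dim or saturated spots among the members could not be marked.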

Other observations

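The 2 chaperone genes below, outside the rule for named genes, picked after their values were seen and with probes outside the first 66 columns, had unlike patterns. Hsp90aa1, the inducible cytosolic Hsp90, was below control on all 4 arrays with little spread, at -0.20 on array 1 and -0.11 on array 2 of EPA, and -0.20 on array 1 and -0.09 on array 2 of DHA. Serpinh1, the collagen chaperone of the endoplasmic reticulum, read -0.14 and 1.12 with EPA, and -0.33 and 0.60 with DHA. It lay below control on arrays 1 and above on arrays 2 in both swaps, and past 1.5-fold on both arrays 2. Neither gene passed 1.3-fold on both arrays of a swap.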
